A study of Caenorhabditis elegans with 16 samples.

Results

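The cytochrome P450 genes of Caenorhabditis elegans were followed through RNA sequencing of whole worms at day 1 of adulthood. A gene counted as a member when its name in the deposited tables began with cyp- and a number, which gave 75 of the 42048 genes and loci listed. The study had 4 groups of 4 libraries each. The first was strain TU3401 on the Luc control RNAi, a germline-bearing background known for RNAi that acts mainly in neurons, because the dsRNA channel SID-1 is missing from the body and put back under the pan-neuronal unc-119 promoter. The other 3 groups were strain SHU47, labelled as glp-1 worms in the TU3401 background, on Luc RNAi, on mml-1 RNAi or on mxl-2 RNAi, each fed in HT115 bacteria. Loss of the Notch receptor gene glp-1 leaves worms without a germline and is known to lengthen their life, and MML-1, a Mondo-type transcription factor, acts as a dimer with MXL-2. Whether libraries of a group came from separate cultures is not stated, so the p-values measure the spread between these libraries. All 12 germline-less libraries carry glp-1, so a difference between knockdown and control is a difference within germline-less worms.

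Cytochrome P450s are heme-containing oxygenases that add oxygen to lipids, steroids and foreign chemicals. Most sit in the endoplasmic reticulum and take electrons from P450 reductase, in worms the product of emb-8, or from cytochrome b5, while mitochondrial P450s use a separate electron chain. Worms carry a large set of them. Members of the CYP2-like clan, such as the cyp-35A genes, are known for their induction by foreign chemicals and for effects on fat storage, others make eicosanoids from polyunsaturated fatty acids, and cyp-31A2 and cyp-31A3 build the lipid-rich layer of the eggshell.

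Of the 75 genes, 43 were CYP2-like, 19 CYP3-like and 11 CYP4-like. cyp-44A1 was the mitochondrial member, and cyp-23A1 was placed in no clan. The largest families were cyp-33 with 18 genes, cyp-13 with 13 and cyp-35 with 10. Chromosome V held 41 of them in the WBcel235 annotation, in which 74 of the 75 names were found. A read was present in all 16 libraries for 63 genes and in some libraries for the other 12, so no member was without a read. The levels are RPKM, read counts scaled to a length per gene and to library size. The length that gave whole reads matched the annotated coding length for 67 of the 75 genes. Library totals recovered from the RPKM steps were 18818680 to 27228111 reads, at which 1 read on a gene of 1 kb was worth 0.0367 to 0.0531 RPKM. The targeted genes did not follow the labels: under the mml-1 RNAi label, mml-1 was at 23.8, 91.5, 28.9 and 22.9 RPKM, with controls at 35.2, 23.9, 11.9 and 11.2 RPKM. Under the mxl-2 RNAi label, mxl-2 was at 29.3, 90.7, 733 and 47.4 RPKM, with controls at 24.5, 30.3, 21 and 22.9 RPKM. The target levels in whole-worm RNA thus gave no check of the knockdowns, and the groups are called by their labels. glp-1 itself stood at 69.2 to 75.6 RPKM in TU3401 and at 2.08 to 4.32 RPKM in the 12 germline-less libraries.

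**Figure D1:**
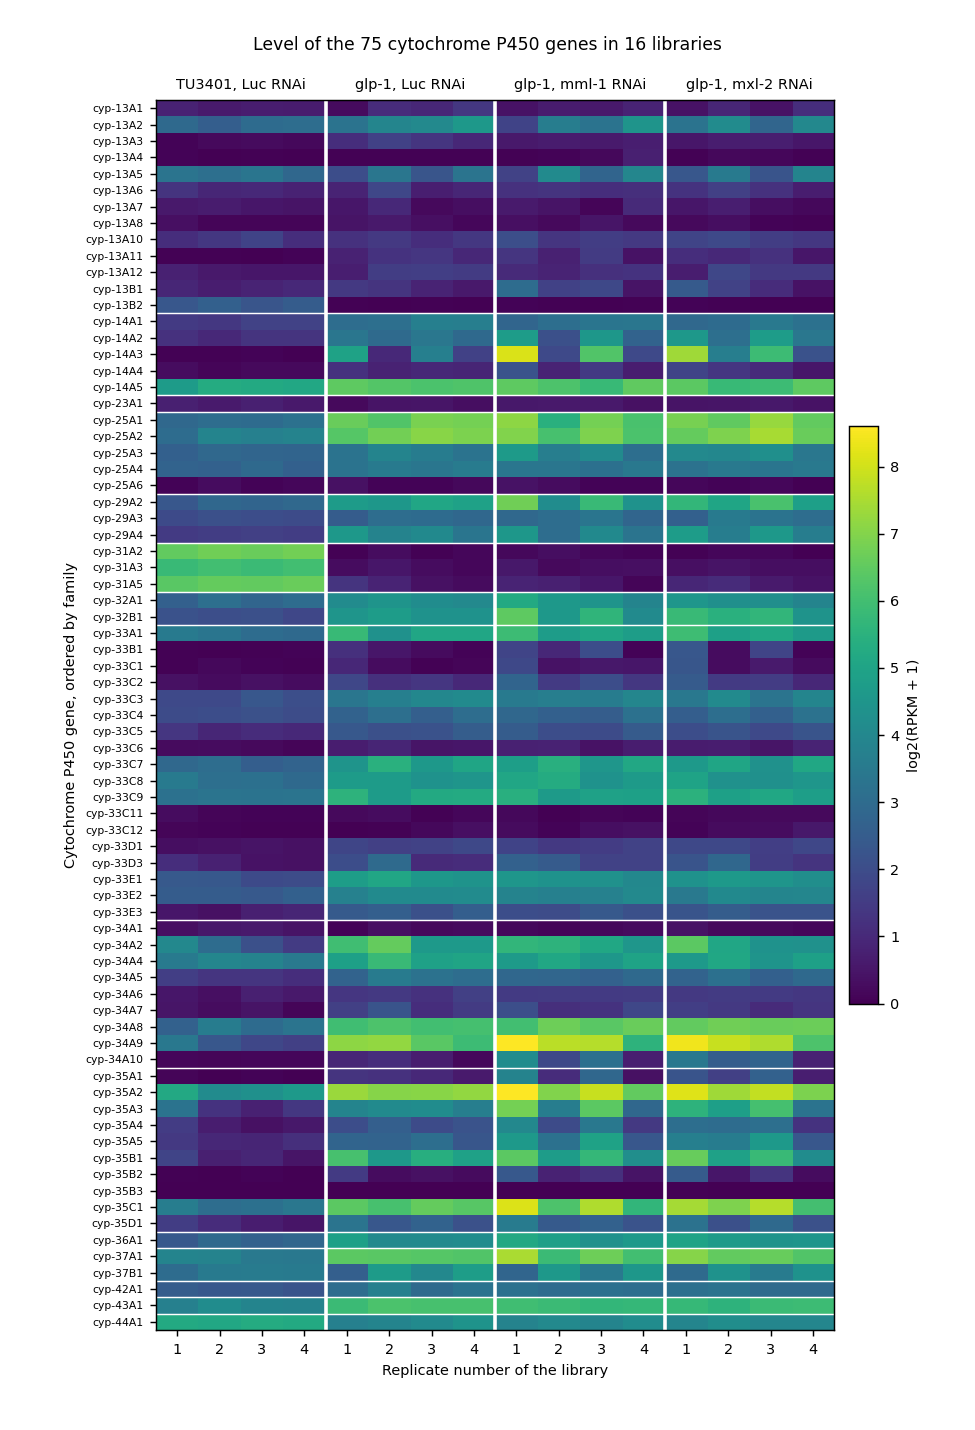
Level of each of the 75 P450 genes (rows, ordered by family) in each of the 16 libraries (columns, by group and replicate number), as the colour of log2(RPKM + 1). The cyp-31 genes and cyp-13B2 are higher in the 4 TU3401 libraries than in the other 12, most other families go the opposite way, and cyp-14A3 and the cyp-35A genes differ between libraries of one knockdown group.

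Together the P450 genes made up more of the RNA in worms without a germline. Their levels summed to 570.0, 587, 556 and 574 RPKM in the 4 TU3401 libraries and to 1503, 1491, 1396 and 1351 RPKM in the glp-1 control libraries. The groups did not overlap, with means of 572 ± 12.5 and 1435 ± 73.9 RPKM (SD, n = 4). The make-up of the sum also differed. The 3 cyp-31 genes supplied 44.1% of it in TU3401 and 0.073% in the glp-1 control. CYP2-like genes supplied 29.2% in TU3401 and 62.4% in the glp-1 control. Without the cyp-31 genes the sum was 304 to 339 RPKM in TU3401 and 1351 to 1502 RPKM in the glp-1 control.

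**Figure D2:**
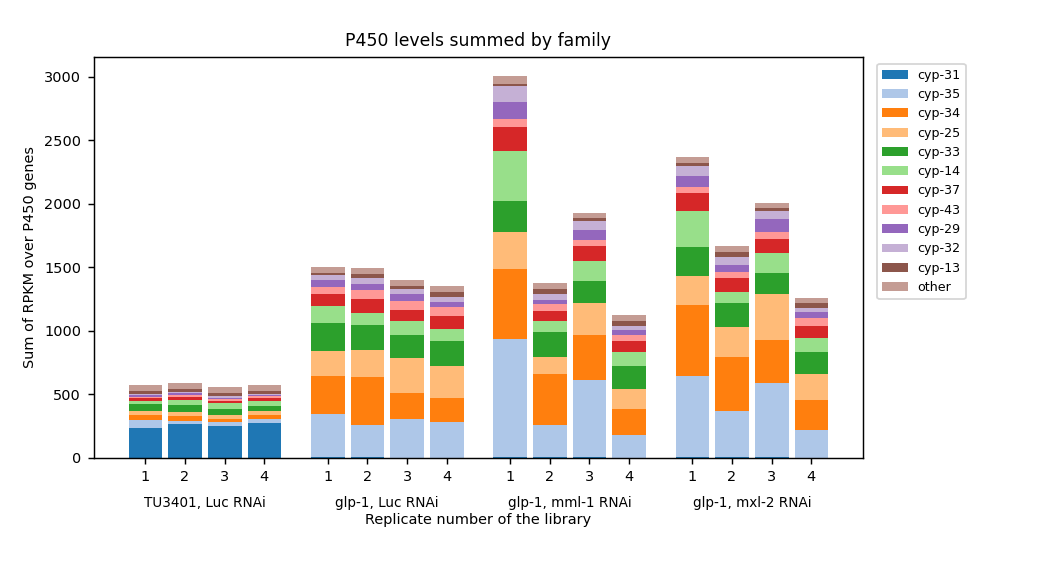
Sum of RPKM over the P450 genes in each library, stacked by family, for the 4 groups. In TU3401 the cyp-31 family fills 231 to 269 of 556 to 587 RPKM, and in the 12 germline-less libraries, where the cyp-34 or the cyp-35 family is the tallest part, the sum runs from 1126 to 3004 RPKM.

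The comparison of the glp-1 control with TU3401, both on Luc RNAi, asks what germline loss does. It was tested with limma on log2(RPKM + 1) over the 13563 genes with a mean of at least 1 RPKM in the 8 libraries, and a gene was called at a Benjamini-Hochberg adjusted p under 0.05. Of the 75 P450 genes, 54 passed this filter, and 45 of them rose and 5 fell in worms without a germline. Across all genes tested, 41.5% rose and 46.1% fell, so a call in either direction was common. The median log2 fold change was 1.56 over the P450 genes tested and -0.06 over all genes. A gene can pass the filter through the group in which it is high, so these counts describe the tested members only. Without the filter, all values of the glp-1 control lay above all values of TU3401 for 51 of the 75 genes and below them for 6. Among the 54 that passed the filter these counts were 43 and 5, and among all 13563 genes tested the share without overlap was 38.4% higher and 45.0% lower.

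**Figure D3:**
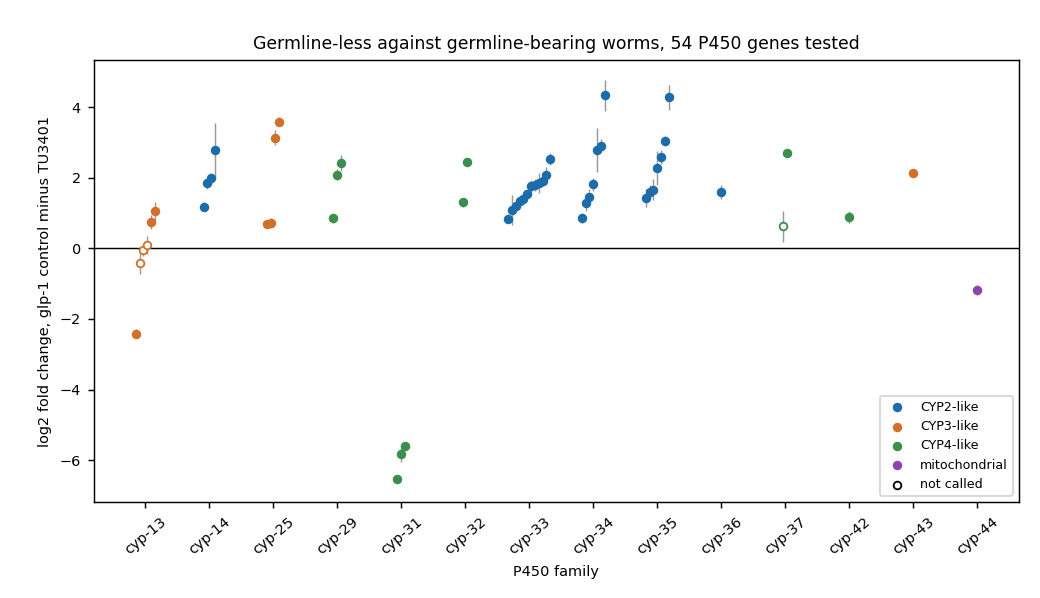
Log2 fold change (glp-1 control minus TU3401, on log2(RPKM + 1)) of the 54 P450 genes tested, by family, with the standard error as a bar and the clan as the colour; open points were not called. The 31 CYP2-like genes lie between 0.85 and 4.33, and the 3 cyp-31 genes lie between -6.53 and -5.61.

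The eggshell gene cyp-31A2, on chromosome IV at 11403961 to 11406091, was the P450 gene with the highest level in germline-bearing worms. Its values were 92.2, 104.3, 98.9 and 108 RPKM in TU3401 and 0.0315, 0.231, 0.0284 and 0.123 RPKM in the glp-1 control, which is 1 to 8 reads a library. The ratio of the means was 974, and the fitted log2 fold change was -6.53 (SE 0.093, adjusted p = 2.7e-11). The fit adds 1 RPKM to every value, which shrinks the fold change of any gene near 0 in 1 group. The authors' deposited log2 fold change for cyp-31A2 was -9.71. Its partner in eggshell formation, cyp-31A3, stood at 60.0 ± 4.04 RPKM in TU3401 and at 0.251 ± 0.13 RPKM in the glp-1 control. The third member of the family, cyp-31A5, stood at 91.5 ± 5.98 and 0.69 ± 0.578 RPKM. All 3 genes lie on chromosome IV but far from each other, with cyp-31A3 at 4761049 and cyp-31A5 at 13401289. They are close copies, and the sources used here do not say how reads that match more than 1 of them were assigned, so the split between the 3 is uncertain, and how far their sum is affected was not tested.

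Another pair of genes fell with the cyp-31 family. cyp-13B2, on chromosome X, stood at 4.08, 5.16, 3.81 and 4.65 RPKM in TU3401 and at 0.0306, 0, 0.0275 and 0 RPKM in the glp-1 control. These values rest on 619 reads against 2, a ratio of 327 at equal depth with a 95% counting interval of 90.1 to 2704. Its neighbour in name, cyp-13B1, had too low a mean to be tested. cyp-44A1, the mitochondrial P450, fell from 36.3, 34.6, 38.5 and 36.7 RPKM to 12.3, 13.8, 16.5 and 20.4 RPKM, a log2 fold change of -1.19 (SE 0.138, adjusted p = 2.95e-05). Under quantile scaling, which moved the median of all genes from -0.06 to 0.42, the log2 fold change of cyp-44A1 was -0.25 (adjusted p = 0.0988). Its call thus depended on the scaling, though quantile scaling was the only setting tried that removed it. Markers of the germline moved with these genes: all 12 germline genes tested fell, and their summed level was 5975 to 6252 RPKM in TU3401 and 10.2 to 21.1 RPKM in the 12 germline-less libraries, with pgl-3 at 0 in all 4 glp-1 control libraries. In whole worms, fewer cells of a type and less RNA per cell cannot be told apart.

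All 31 CYP2-like genes tested rose, out of 43 in the clan. Below the filter, cyp-34A1 went the other way in the authors' deposited comparison (log2 fold change -1.05, false discovery rate 0.0371). It was the only CYP2-like gene with a negative deposited log2 fold change. In the cyp-35 family, 7 of 10 genes passed the filter, and all 7 rose. cyp-35A2, the P450 gene with the highest level in the glp-1 control, stood at 35.3, 16.8, 18.8 and 23.9 RPKM in TU3401 and at 156, 129.6, 134 and 148 RPKM in the glp-1 control (log2 fold change 2.58, SE 0.204, adjusted p = 1.92e-06). cyp-35B1, also known as a target of the longevity factor DAF-16, stood at 2.35, 0.703, 0.888 and 0.401 RPKM in TU3401. In the glp-1 control it stood at 68.2, 23.1, 40.8 and 29.3 RPKM (log2 fold change 4.27, SE 0.366, adjusted p = 3.71e-06). The lowest glp-1 control library thus lay far above the highest TU3401 library. cyp-35C1 rose from 9.15 ± 1.83 to 81.8 ± 11.1 RPKM, with no overlap between groups. Among the smaller cyp-35A genes, cyp-35A3 rose from 3.13 ± 3.78 to 14.7 ± 2.38 RPKM, cyp-35A4 from 0.809 ± 0.712 to 3.69 ± 1.02 RPKM and cyp-35A5 from 1.18 ± 0.367 to 5.72 ± 1.51 RPKM. cyp-35A3 owed its wide spread in TU3401 to library 1, at 8.77 RPKM against 0.746 to 1.62 RPKM in the other libraries. That library was also the highest of its group for the family as a whole, at 63.5 RPKM against 29 to 37.8 RPKM. cyp-35A1 stayed below the filter, at 0 to 0.076 RPKM in TU3401 and 0.525 to 1.44 RPKM in the glp-1 control. cyp-35B3 was the quietest P450 gene, with 1 read in 1 of the 16 libraries.

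Among the P450 genes tested, the largest fitted rise on log2(RPKM + 1) was that of cyp-34A9, in the cyp-34 family. In the authors' deposited comparison the largest rise was that of cyp-14A3, at a log2 fold change of 8.62, against 4.72 for cyp-34A9. cyp-34A9, like cyp-35B1 known from screens for genes downstream of the insulin receptor DAF-2, stood at 9.94, 4.06, 2.54 and 2.1 RPKM in TU3401. In the glp-1 control its values were 138, 145, 82.5 and 58.3 RPKM (log2 fold change 4.33, SE 0.436, adjusted p = 1.17e-05). In both groups the libraries numbered 3 and 4 were the lowest. Its neighbour cyp-34A8 varied less in the glp-1 control, rising from 8.11 ± 2.55 to 65.3 ± 4.69 RPKM. cyp-34A2 rose from 6.81 ± 5.88 to 50.3 ± 33.3 RPKM, with the glp-1 control libraries at 60.7, 93.0, 24.1 and 23.6 RPKM. In all, 7 of the 9 genes of the family were tested and 7 rose, and cyp-34A1 and cyp-34A10 were below the filter.

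cyp-14A3 was almost silent with a germline, at 0.0355, 0.0286, 0.0592 and 0 RPKM, and at 30.1, 0.97, 12.1 and 2.16 RPKM without one. Every germline-less control library was higher than every TU3401 library, but the glp-1 control spread over more than an order of magnitude (log2 fold change 2.78, SE 0.777, adjusted p = 0.0081). The fold change was 2.07 without glp-1 control library 1 and 3.40 without glp-1 control library 2, and with all 16 libraries in 1 fit the adjusted p was 0.0757. The other cyp-14A genes were steadier: cyp-14A1 rose from 1.96 ± 0.306 to 9.78 ± 2.54 RPKM and cyp-14A5 from 33.9 ± 5.74 to 77.3 ± 6.94 RPKM. These 3 genes and cyp-14A2 were the 4 of 5 in the family that could be tested, and all 4 rose.

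The cyp-33 family is the largest, and 12 of its 18 genes were tested and 12 rose, by log2 fold changes of 0.85 to 2.54. cyp-33E1 rose from 3.58 ± 0.791 to 25.7 ± 5.68 RPKM. cyp-33E2, which makes eicosanoids from eicosapentaenoic acid, rose from 4.70 ± 0.352 to 15.5 ± 1.83 RPKM, and cyp-33E3 beside it on chromosome IV from 0.577 ± 0.253 to 4.46 ± 0.813 RPKM. The least secure member was cyp-33D3, which stood at 1.18, 0.720, 0.327 and 0.313 RPKM in TU3401 and at 3.06, 6.86, 1.02 and 1.13 RPKM in the glp-1 control. Its groups overlapped, its adjusted p was 0.0355, and it lost its call when TU3401 library 2, 3 or 4 or glp-1 control library 1 or 2 was left out, with adjusted p values of 0.0543 to 0.0834. It was named after its values were seen.

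The next 3 genes were described for their known roles. cyp-29A3, the second maker of eicosanoids known beside cyp-33E2, stood at 2.85, 3.26, 3.14 and 2.93 RPKM in TU3401 and 4.63, 7.38, 7.01 and 6.39 RPKM in the glp-1 control (log2 fold change 0.85, SE 0.135, adjusted p = 2.66e-04). cyp-36A1, which acts downstream of the oxygen sensor EGL-9 and the factor HIF-1, stood at 4.34, 6.74, 5.29 and 6.16 RPKM and at 28.3, 15.6, 16.5 and 17.3 RPKM (log2 fold change 1.59, SE 0.197, adjusted p = 4.53e-05). Library 1 of the glp-1 control stood apart in it, and the other 3 still lay above all of TU3401. cyp-13A12, which makes eicosanoids in the response to returning oxygen, stood at 0.717, 0.496, 0.427 and 0.424 RPKM and at 0.663, 1.96, 2.04 and 1.79 RPKM. Its groups overlapped through library 1 of each, and its log2 fold change was 0.75 (SE 0.205, adjusted p = 0.00706).

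Among CYP3-like genes, the tested cyp-25 genes rose, and most cyp-13A genes were either below the filter or not called. cyp-25A1 stood at 6.48, 7.36, 7.08 and 8.16 RPKM in TU3401 and at 97.4, 76.0, 115.2 and 109 RPKM in the glp-1 control, a log2 fold change of 3.59 (SE 0.133, adjusted p = 8.44e-09). The adjoining cyp-25A2 rose from 11.7 ± 3.01 to 110.0 ± 22.9 RPKM, and 4 of the 5 genes of the family were tested and rose. cyp-43A1 rose from 14.2 ± 2.0 to 65.5 ± 6.27 RPKM. Of the 11 cyp-13A genes, 5 were tested, 2 rose and 3 were not called. cyp-13A10, at 1.16, 1.62, 2.33 and 1.20 RPKM and at 1.32, 1.68, 1.17 and 1.60 RPKM, had the value nearest 0 (log2 fold change -0.06, adjusted p = 0.738). cyp-13A3 had too low a mean for the test, with 0.068 to 0.198 RPKM in TU3401 and 0.963 to 2.20 RPKM in the glp-1 control, which do not overlap. cyp-13A11, also below the filter, had a deposited log2 fold change of 5.33 (authors' false discovery rate 4.92e-23). Of the other untested cyp-13A genes, cyp-13A8 was higher in the deposited comparison at a false discovery rate under 0.05, as was cyp-13A3. The untested cyp-13A1, cyp-13A4 and cyp-13A7 were not.

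Among CYP4-like genes outside the cyp-31 family, cyp-37A1 stood at 13.7, 13.5, 10.1 and 9.82 RPKM in TU3401 and 85.7, 83, 79.1 and 76.5 RPKM in the glp-1 control (log2 fold change 2.70, SE 0.117, adjusted p = 2.47e-08). cyp-32B1 rose from 3.14 ± 0.386 to 21.7 ± 3.11 RPKM. cyp-37B1 was not called. It stood at 7.26, 10.5, 10.9 and 10.4 RPKM in TU3401 and at 5.12, 25.5, 15.1 and 26.8 RPKM in the glp-1 control, where library 1 lay below all of TU3401 and the other 3 above it (log2 fold change 0.62, SE 0.443, adjusted p = 0.211). Without glp-1 control library 1 its log2 fold change was 1.10 with an adjusted p of 0.00161, and under quantile scaling it was 1.30 with an adjusted p of 0.0224.

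The authors' deposited table, which holds their own comparison of all genes, gave a false discovery rate under 0.05 for 64 of the 75 P450 genes, 57 higher and 7 lower without a germline. That share is set beside 33.1% of all 42048 loci in the same table, many of which had no reads.

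Many P450 genes sit side by side in the genome. Groups with gaps under 10 kb numbered 12 in the WBcel235 annotation. The largest, on chromosome V from 3936326 to 3972991, held 10 genes of the cyp-34A and cyp-35 families, from cyp-35A5 to cyp-34A10. All 7 tested genes in it rose, while levels in the glp-1 control differed from 0 RPKM for cyp-35B3 to 106 RPKM for cyp-34A9 (the first was not tested). A group of 8 cyp-13A genes on chromosome II, from 9779181 to 9807569, had 3 genes tested and 1 called, cyp-13A2. The rest were below the filter. Among those, the authors' deposited comparison had cyp-13A3 and cyp-13A8 higher (log2 fold changes 3.43 and 1.47, false discovery rates 5.62e-17 and 0.0253). For cyp-13A1, cyp-13A4 and cyp-13A7 the deposited false discovery rate was not under 0.05. On chromosome III, cyp-25A1, cyp-25A2 and cyp-25A3 lie within 3832591 to 3839735 and rose by log2 fold changes of 0.73 to 3.59. On chromosome V as a whole 30 genes were tested, 29 rose and none fell.

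Partners and suppliers of P450s were described from lists of named genes. Their counts are to be read beside the 41.5% of all genes tested that rose and the 46.1% that fell. The reductase gene emb-8, which serves the eggshell P450s as well as the somatic ones, was not called (97.8 ± 7.32 RPKM in TU3401, 109 ± 12.9 RPKM in the glp-1 control, adjusted p = 0.183). Both cytochrome b5 genes of the list rose, cytb-5.1 from 132 ± 18.6 to 462 ± 91.3 RPKM and cytb-5.2 from 179 ± 8.61 to 298 ± 31.7 RPKM. Of 6 tested genes of heme transport, 3 rose (hrg-1, hrg-6 and mrp-5) and none fell. All 6 genes of polyunsaturated fat synthesis and epoxide hydrolysis rose, among them the epoxide hydrolase genes ceeh-1, from 17.7 ± 0.817 to 74.8 ± 10.1 RPKM, and ceeh-2, from 6.41 ± 0.548 to 34.8 ± 4.67 RPKM. In the dafachronic acid and sterol pathway 4 of 5 tested genes rose, and the P450 gene daf-9, which makes the hormone and is not a member by name, was not called (1.12 ± 0.136 and 1.011 ± 0.247 RPKM, adjusted p = 0.566). Of 13 tested regulators known to act on P450 genes, 7 rose and 3 fell. The 3 that fell were the nuclear receptor gene nhr-86, from 31.1 ± 2.62 to 13.2 ± 2.92 RPKM, the Mediator subunit gene mdt-15, from 71.6 ± 3.68 to 62.8 ± 4.75 RPKM, and skn-1, the worm Nrf factor, from 125 ± 7.98 to 70.6 ± 29.6 RPKM.

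Most markers of the intestine, muscle and neurons rose with the P450 genes, while those of the hypodermis were divided. Of all genes tested, 41.5% rose and 46.1% fell. Of 10 intestine markers 7 rose and none fell, and their summed level was 725 to 954 RPKM in TU3401 and 1551 to 2865 RPKM in the glp-1 control. All 6 muscle markers rose, with sums of 607 to 709 and 2179.7 to 2377 RPKM, and 6 of 8 neuron markers rose, with sums of 555 to 619 and 688 to 884 RPKM. Of 4 tested hypodermis markers 1 rose and 2 fell, with sums over the list of 494 to 717 and 825 to 1126 RPKM. The part of tissue make-up in the P450 levels was not tested. The other detoxification families did likewise: 44 of 54 tested UDP-glucuronosyl transferase genes rose and 1 fell, and 28 of 38 tested glutathione S-transferase genes rose and 2 fell.

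The comparison of mml-1 RNAi with its glp-1 control asks whether P450 genes depend on neuronal MML-1. No P450 gene was called by limma among 59 tested, where 0.0159% of 12591 genes were. At an unadjusted p under 0.05 there were 4 P450 genes among the 59, against 7.82% of all genes. The median log2 fold change over the P450 genes was 0.08. With voom on the recovered whole reads and the replicate number as a block, a fit chosen after the data were seen, 5 were called: cyp-33C2, cyp-34A10, cyp-35B2 and cyp-36A1 higher and cyp-13A3 lower, where that fit called 3.28% of all genes. The authors' deposited table held 2 P450 genes under a false discovery rate of 0.05, where 0.209% of all loci were, cyp-34A10 at a log2 fold change of 3.33 and cyp-13A3 at -1.37.

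The comparison of mxl-2 RNAi with the same control gave no called P450 gene among 58 tested, where 0.103% of 12581 genes were called. Since both knockdowns were set against the same 4 control libraries, likeness between the 2 comparisons is not independent. There were 5 P450 genes at an unadjusted p under 0.05, while 6.54% of all genes were. With the replicate block limma called 1, cyp-34A8, and voom with the block called 4, cyp-14A3, cyp-34A8, cyp-34A10 and cyp-35B2, where these fits called 0.191% and 2.28% of all genes. The authors' deposited table again listed cyp-34A10, at 2.92, and cyp-13A3, at -1.44, under a false discovery rate of 0.05, where 0.183% of all loci were.

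cyp-34A8 was the P450 gene whose rise under mxl-2 RNAi was the most even. It stood at 61.6, 71.7, 62.1 and 65.9 RPKM in the glp-1 control and at 92.3, 106, 99.3 and 101 RPKM on mxl-2 RNAi, so the groups did not overlap, which was the case for 2.15% of all genes in this direction. The log2 fold change was 0.60 (SE 0.088) with an adjusted p of 0.0739, and 0.0413 with the replicate block. On mml-1 RNAi the gene stood at 62.9, 102, 82.7 and 98.9 RPKM, where library 1 lay within the control range (log2 fold change 0.38, SE 0.156, adjusted p = 0.591). It was higher than its same-numbered control in 4 of 4 pairs on either RNAi.

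cyp-34A10, next but one to cyp-34A8 on chromosome V, had low levels and large differences. It stood at 0.908, 1.17, 0.62 and 0.147 RPKM in the glp-1 control, at 17.2, 2.67, 7.93 and 0.637 RPKM on mml-1 RNAi and at 9.75, 4.78, 5.79 and 0.767 RPKM on mxl-2 RNAi. It was higher in 4 of 4 pairs on either RNAi, but library 4 of each knockdown lay within the control range. The log2 fold changes were 1.75 (SE 0.675, adjusted p = 0.577) and 1.65 (SE 0.507, adjusted p = 0.515).

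cyp-13A3 went the other way. It stood at 1.17, 2.20, 1.51 and 0.963 RPKM in the glp-1 control, at 0.498, 0.557, 0.527 and 0.662 RPKM on mml-1 RNAi and at 0.433, 0.599, 0.658 and 0.442 RPKM on mxl-2 RNAi. Both knockdown groups lay wholly below the control, as did 2.61% and 1.97% of all genes tested in the respective comparisons. On mml-1 RNAi its log2 fold change was -0.63 (SE 0.177, adjusted p = 0.41), and on mxl-2 RNAi its mean of 0.997 RPKM put it just outside the filter. It rests on 15 to 80 reads a library in these groups.

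The remaining genes with the smallest p values were not called. On mml-1 RNAi cyp-33E1 stood at 19.1 ± 2.97 RPKM against 25.7 ± 5.68 RPKM in the control (adjusted p = 0.637) and cyp-43A1 at 55.5 ± 4.945 against 65.5 ± 6.27 RPKM (adjusted p = 0.649). On mxl-2 RNAi cyp-43A1 stood at 53.7 ± 5.41 RPKM (adjusted p = 0.683), cyp-13A10 at 2.17 ± 0.454 against 1.44 ± 0.239 RPKM (adjusted p = 0.702) and cyp-32B1 at 42.5 ± 15.7 against 21.7 ± 3.11 RPKM (adjusted p = 0.575). For cyp-32B1 library 4 decided the call, since without mxl-2 RNAi library 4 its log2 fold change was 1.16 with an adjusted p of 0.0431.

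**Figure D4:**
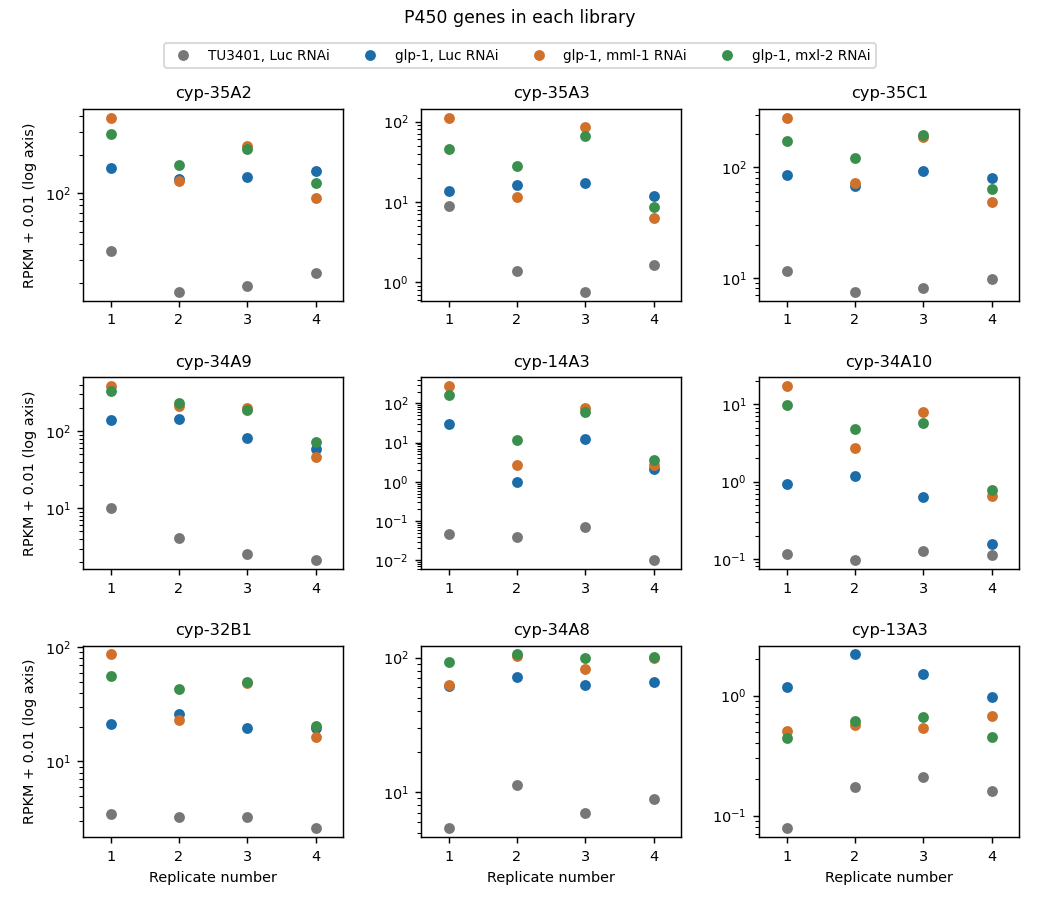
RPKM (log axis) of 9 P450 genes by replicate number, with 1 point per library, coloured by group; 0.01 was added so that 0 can be drawn. For cyp-35A2, cyp-35A3, cyp-35C1, cyp-34A9 and cyp-14A3 the knockdown points lie above the control at replicates 1 and 3 and are less than 2-fold above it, or below it, at replicate 4, while cyp-34A8 on mxl-2 RNAi is even over the 4 replicates.

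P450 genes spread more within the knockdown groups than within the glp-1 control, and the spread of their sum followed the replicate number. The P450 sum was 3004, 1377, 1930.0 and 1126 RPKM on mml-1 RNAi and 2370.5, 1668, 2007 and 1259 RPKM on mxl-2 RNAi. Libraries 1 and 3 of both knockdowns, and library 2 on mxl-2 RNAi, lay above every control library, and library 4 lay below every control library in both. The median over P450 genes of the highest library over the lowest was 1.55 in TU3401, 1.90 in the glp-1 control, 2.55 on mml-1 RNAi and 2.40 on mxl-2 RNAi. These medians cover 63 genes in TU3401 and 69 in each other group, those with a read in every library needed, some at low levels. The same median over all genes was not computed.

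cyp-14A3 showed this most strongly. On mml-1 RNAi it stood at 276, 2.71, 75.2 and 2.74 RPKM and on mxl-2 RNAi at 165, 11.7, 58.8 and 3.54 RPKM, against 30.1, 0.97, 12.1 and 2.16 RPKM in the control. Here the control followed the same order as the knockdowns for the libraries numbered 1 and 3, which were its highest as well. The cyp-35 family sum in the control, at 345, 252, 302 and 281 RPKM, was also highest in libraries 1 and 3. Its member cyp-35A3 did not share this order in the control, at 13.8, 16.3, 17.0 and 11.8 RPKM. cyp-35A3 stood at 111, 11.5, 85.1 and 6.38 RPKM on mml-1 RNAi and at 45.7, 28.0, 65.9 and 8.68 RPKM on mxl-2 RNAi. cyp-35A2 stood at 386, 125, 233 and 92.0 RPKM on mml-1 RNAi and at 291, 165, 221 and 119 RPKM on mxl-2 RNAi. cyp-35C1 stood at 281, 72.2, 187 and 49 RPKM and at 174, 122, 197 and 63.6 RPKM. In all 3 genes libraries 1 and 3 were the highest of each knockdown group and library 4 the lowest. cyp-34A9 was graded differently, at 385, 209, 197 and 46.4 RPKM on mml-1 RNAi and at 337, 232, 188 and 72.7 RPKM on mxl-2 RNAi, where library 4 was again the lowest.

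Counted within pairs of the same number, 16, 0, 11 and 0 of the 59 tested P450 genes were at least 2-fold higher on mml-1 RNAi than in the control in pairs 1 to 4, on the log2(RPKM + 1) scale. Among all genes these shares were 2.32%, 2.06%, 1.76% and 0.683%. On mxl-2 RNAi 10, 2, 12 and 0 of 58 were at least 2-fold higher, against 1.88%, 2.21%, 1.32% and 0.835% of all genes. In pairs 1 and 3 of both knockdowns 7 genes were 2-fold higher: cyp-14A2, cyp-14A3, cyp-32B1, cyp-34A9, cyp-34A10, cyp-35A3 and cyp-35A4. Among the genes tested in both comparisons these were 7 of 58 P450 genes and 45 of all 12432 genes (0.362%), and both comparisons share their control libraries. On the log2(RPKM + 1) scale none of the 7 was 2-fold higher in pair 4 of either knockdown. On that scale 5 of them were higher there by less in at least 1 knockdown. One of these, cyp-34A10, was below 1 RPKM in library 4 of the control and of both knockdowns, where adding 1 RPKM shrinks the ratio. Its ratios of plain RPKM in pair 4 were above 2-fold in both knockdowns. In pair 2, cyp-14A3 and cyp-34A10 were 2-fold higher in at least 1 knockdown. These counts compare single libraries and carry no test.

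**Figure D5:**
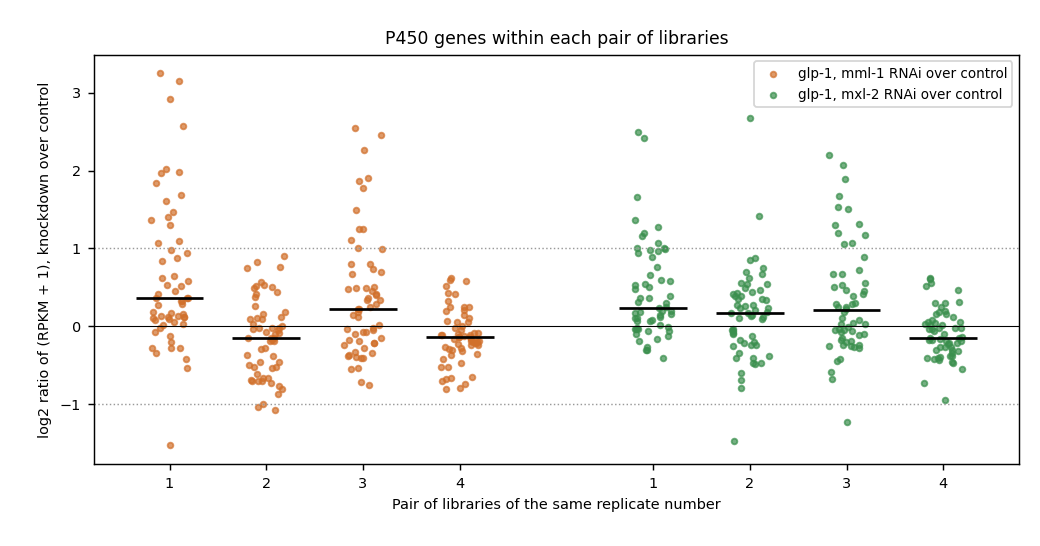
Log2 ratio of (RPKM + 1), knockdown over same-numbered glp-1 control, for each P450 gene tested (points) and the median (bar), by pair, for mml-1 RNAi on the left and mxl-2 RNAi on the right; dotted lines mark 2-fold. In pairs 1 and 3 many points lie above the upper line, and in pair 4 none does in either knockdown.

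The summed level of the redox partners was also highest in libraries 1 and 3 and lowest in library 4 of each knockdown group and of the control. It was 1581, 943, 1389.8 and 709.7 RPKM on mml-1 RNAi, 1436, 1034, 1467 and 825 RPKM on mxl-2 RNAi and 965, 838, 930.3 and 743 RPKM in the control. cytb-5.1 alone stood at 1052, 477, 898 and 377 RPKM on mml-1 RNAi. The sum of the intestine markers was 2051, 1812, 2055 and 1641 RPKM on mml-1 RNAi, with libraries 1 and 3 the highest and library 4 the lowest, as for the P450 genes. On mxl-2 RNAi it was 1691, 2491, 1837 and 1529.9 RPKM, with library 4 again the lowest but library 2 the highest. In the control the intestine sum was 1551, 2865, 1784 and 1801 RPKM, with library 2 the highest and library 1 the lowest. The part of the intestine in the P450 levels was not tested. The cyp-13 family was higher in libraries 2 and 4, at 20.7, 36.3, 25.1 and 43.4 RPKM on mml-1 RNAi, 24.1, 40.4, 18.6 and 35.6 RPKM on mxl-2 RNAi and 19.2, 37.4, 28.6 and 40.5 RPKM in the control. cyp-37B1 shared that order, at 5.97, 22.9, 10.1 and 22.7 RPKM on mml-1 RNAi and 6.88, 19.8, 11.1 and 19.8 RPKM on mxl-2 RNAi. What a replicate number stands for is not stated in the labels, and its part in these levels was not tested.

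The direct comparison of mxl-2 RNAi with mml-1 RNAi gave no called P450 gene among 59 tested by limma, none at an unadjusted p under 0.05 and a median log2 fold change of 0.00. Of all 12540 genes none was called and 111 (0.885%) had an unadjusted p under 0.05. The 5 P450 genes with the smallest p were cyp-33D1, cyp-34A8, cyp-33C8, cyp-25A2 and cyp-33E3, all with an adjusted p of 1.00. Among them cyp-34A8 had 99.5 ± 5.57 RPKM on mxl-2 RNAi and 86.6 ± 18 RPKM on mml-1 RNAi, cyp-33D1 had 2.45 ± 0.304 and 2.02 ± 0.289 RPKM, and cyp-33C8 had 22.7 ± 5.43 and 28.9 ± 8.28 RPKM. The cyp-31 genes were low in both knockdowns as in the control: their sum was 0.403 to 1.40 RPKM on mml-1 RNAi and 0.582 to 1.57 RPKM on mxl-2 RNAi. cyp-44A1, which fell less after germline loss, stood at 14.9 ± 1.66 RPKM on mml-1 RNAi and 15.1 ± 1.76 RPKM on mxl-2 RNAi. Its mean in the glp-1 control was 15.7 RPKM.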

How the data were processed

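Whole worms were sequenced in 4 groups of 4 libraries. The deposited tables hold RPKM per gene and library, normalised by the authors, with their own log2 fold changes, p-values and false discovery rates. Per the submitters' processing notes the tools were bcl2fastq and TopHat2 2.1.1, and the build named is the human GRCh38; the worm build, counting rule and strand are not given in the sources used here. Gene positions come from the WBcel235 annotation (Ensembl release 115). RPKM steps gave whole reads for all 25332 loci above 0 (tolerance 0.001 reads). Floors and intervals cover counting error only.

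The 3 tables were joined on gene name; columns shared between them were equal. Each comparison was fitted with limma 3.58.1 in R 4.3.3 (trend, robust) on log2(RPKM + 1) over genes with a mean of at least 1 RPKM in its 8 libraries, with Benjamini-Hochberg adjustment over all genes tested. The fits were tested on simulated data. Alternatives were a pseudocount of 0.1, no filter, quantile and median-ratio scaling, all 16 libraries in 1 fit, the replicate number as a block, voom on the whole reads, and leaving out each library.

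Replicate numbers come from the sample titles. Libraries with the same number deviated together from their group means in every pair, with correlations across genes of 0.12 to 0.265 for the glp-1 control and TU3401 and of 0.199 to 0.676 among the germline-less groups. Libraries of different number ranged from -0.271 to 0.240 and from -0.561 to 0.270, so some exceeded same-numbered ones. Every same-numbered correlation was over 0.1, so the numbers were taken to pair the libraries in the pair counts and in the fits with the replicate block. The main limma fits did not use the pairing.

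The members and the gene lists were chosen with earlier results of these data known. Genes described were the 8 called members of largest change in each direction after germline loss, the 8 of highest mean level, every called member and the 5 of smallest p in the other comparisons, and members of known role; the rest are given as counts. The lists, of which hrg-7 and strm-1 were not found in the tables, cover redox partners, heme supply, the dafachronic acid and sterol pathway, polyunsaturated fat and epoxide hydrolysis, P450 regulators, 5 sets of tissue markers and 2 other detoxification families.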

Additional observations from a re-analysis of the deposited data

Results flagged for a closer look

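Within groups of 4, a library was looked at again when its gap to the nearest other library, divided by the whole range, was above Dixon's 95% critical value. Among the 35 P450 genes described, in 140 groups, 7 libraries did so, and chance alone flags about 1 in 20 groups. In TU3401 library 1 cyp-35A3 was at 8.77 RPKM against 0.746 to 1.62 RPKM in the others, and cyp-37B1 was at 7.26 RPKM against 10.4 to 10.9 RPKM. In glp-1 control library 1 cyp-36A1 was at 28.3 RPKM against 15.6 to 17.3 RPKM, and cyp-33E2 was at 12.8 RPKM against 16.4 to 16.5 RPKM. In mxl-2 RNAi library 2 cyp-44A1 was at 17.7 RPKM against 13.9 to 14.4 RPKM, and cyp-33E3 was at 4.75 RPKM against 3.56 to 3.74 RPKM. In mxl-2 RNAi library 4 cyp-35A4 was at 1.39 RPKM against 7.24 to 7.89 RPKM.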

How the results depend on the processing

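After germline loss, the count of P450 genes that rose was 45, and it ran from 41 to 46 when 1 library was left out and from 44 to 51 under the other settings; the count that fell was 5 throughout the left-out libraries, 7 without the filter and 4 under quantile scaling. On mml-1 RNAi the count was 0 under every setting but voom with the replicate block, which gave 5. On mxl-2 RNAi it was 0, and 1 under quantile scaling, median-ratio scaling and the replicate block, 4 under voom with the block, and 0 to 1 when 1 library was left out, the 1 being cyp-32B1. cyp-34A8 was called under quantile scaling (adjusted p 0.0363) and median-ratio scaling (0.034). The direct comparison of the RNAi groups gave 0 throughout. Apart from the counts named above, the replicate block changed no call. For the 35 genes chosen by rule, 732 recomputed values kept their direction and side of the threshold, 10 gained a call, 2 lost it and 2 reversed; cyp-33D3, which is not among the 35, also lost its call without the filter (adjusted p 0.0583) and in 5 of the fits that left out 1 library. The 2 reversals were cyp-13A10 after germline loss, from -0.06 to 0.27 under quantile scaling and to 0.071 without TU3401 library 3, in a range of -0.14 to 0.071 when 1 library was left out. The cause was not tested. Depth limits the quiet members: 11 genes stayed below 1 RPKM in every group mean.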
